A study of Mus musculus with 103 samples.

Results

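The globin and heme synthesis genes described here are 9 mouse genes chosen by name: the globins Hba-a2, Hbb-b2 and Hbb-y, the heme synthesis enzymes Alas1, Alas2 and Fech, the erythroid transcription factor Klf1, and the carbonic anhydrases Car1 and Car2. They are 9 of the 12393 genes named by a probe set with 1 symbol and were measured by 16 of the 22626 non-control probe sets of an Affymetrix mouse array, taking only probe sets listed under exactly 1 gene symbol. Another 4 probe sets were listed under several adult globin symbols, 3 for alpha and 1 for beta globin, and are called the joint globin probe sets. Adult globin genes are near-identical copies, so no single gene was named from those 4, and the Hba-a2 and Hbb-b2 probe sets may also register their copies.

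Red cells carry oxygen on hemoglobin, which is assembled from alpha and beta globin chains and heme. Embryonic red cells use embryonic globins such as Hbb-y, and later red cells use adult alpha and beta globins. Heme synthesis opens with 5-aminolevulinate synthase, encoded by Alas2 in erythroid cells and by Alas1 in other tissues, and closes with ferrochelatase, encoded by Fech. Klf1 binds CACCC elements and GATA factors bind GATA elements in erythroid promoters. The mouse spleen forms red cells in adult life as well as being a lymphoid organ.

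The promoters are shown of the 5 members that had an entry in the RefSeq table of promoters. Each is the 150 bases before the gene's start in the RefSeq table for GRCm38.p6, printed 5′ to 3′ on the strand of the gene. Capitals mark matches, on either strand, to GATAA (read by GATA factors), CACCC (by Klf1 and its relatives), CCAAT (the CCAAT box) or TATAA (the TATA box); matches of different motifs can overlap. Hbb-b2, Car1, Car2 and Fech are named only.
Hba-a2 promoter, chr11:32296342-32296491, plus strand: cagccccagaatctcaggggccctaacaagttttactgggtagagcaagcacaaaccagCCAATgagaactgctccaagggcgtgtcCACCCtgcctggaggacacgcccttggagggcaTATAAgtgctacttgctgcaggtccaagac
Hbb-y promoter, chr7:103853208-103853357, minus strand: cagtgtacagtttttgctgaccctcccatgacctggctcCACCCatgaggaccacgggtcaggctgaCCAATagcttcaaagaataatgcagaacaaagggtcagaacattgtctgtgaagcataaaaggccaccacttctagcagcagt
Alas2 promoter, chrX:150547267-150547416, plus strand: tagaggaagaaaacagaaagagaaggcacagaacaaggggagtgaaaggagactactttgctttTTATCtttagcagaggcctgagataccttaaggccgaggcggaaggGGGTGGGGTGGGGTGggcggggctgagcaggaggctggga
Klf1 promoter, chr8:84901832-84901981, plus strand: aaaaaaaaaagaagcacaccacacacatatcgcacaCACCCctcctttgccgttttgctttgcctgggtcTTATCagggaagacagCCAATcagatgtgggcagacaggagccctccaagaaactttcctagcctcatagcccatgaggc
Alas1 promoter, chr9:106247955-106248104, minus strand: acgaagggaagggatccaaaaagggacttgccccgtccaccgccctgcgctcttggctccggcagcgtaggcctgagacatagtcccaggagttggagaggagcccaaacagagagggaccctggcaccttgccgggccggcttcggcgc
The Alas2 and Klf1 windows each held 1 GATAA match, and Alas2 held 3 CACCC matches. Hba-a2, Hbb-y and Klf1 each held 1 CACCC and 1 CCAAT match, and Hba-a2 also held a TATAA match. The Alas1 window had no match to the 4 motifs. Among all 32851 promoters of the table, windows of this length held GATAA in 13.35%, CACCC in 37.43%, CCAAT in 24.5% and TATAA in 14.15%.

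The series held 103 arrays that compared protocols for amplifying and labelling small amounts of RNA. RNA of 8 mouse tissues from a commercial panel (embryo, spleen, lung, heart, kidney, ovary, brain and liver) was labelled once with the Affymetrix one-cycle kit, starting at 1 ug, and once from 500 pg by BIIB, a protocol developed at Biogen Idec, giving 16 arrays. Universal mouse RNA, a commercial reference, was on 58 arrays: 4 by one-cycle from 1 ug, 10 by each of the two-cycle, Ovation and RiboAmp HS kits (2 arrays at each of 500, 50 and 5 ng and 500 and 50 pg), and 24 by BIIB (4 arrays at each of 5 and 1 ng and 500, 100, 50 and 10 pg). The remaining arrays, all by BIIB, were 18 of sorted T and B lymphocytes from the spleen of a single mouse and 11 of RAW267 cultured cells. The labelled target was cDNA on BIIB and Ovation arrays and cRNA on all others. The labels gave no age of the embryo, no strain and no number of animals for the tissues. No label says that replicate arrays came from separate preparations. Each tissue RNA was labelled once by each protocol, so the spread of the tissue fit is the disagreement between the protocols over the tissues. The spread in universal RNA is that among arrays of a commercial reference. The p-values for tissues, kits and inputs thus measure no spread among animals.

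Values are MAS5 signals, the authors' intensity per probe set, scaled here to 1 common trimmed mean of 2501 per array. Tests were made with limma on log2(signal + 125), and a probe set was called higher or lower where it differed by 2-fold or more and its Benjamini-Hochberg adjusted p was under 0.05. Probe sets with a mean signal below 500.2 over the arrays of a fit were not tested; in the tissues 15 of the 16 member probe sets passed, and Fech 1427696_at did not (7.20 to 362 on the 16 arrays). A probe set can pass through 1 group alone, in which it is high, and it then had to differ from the others. In the tissues the 3 Hbb-y probe sets passed through embryo alone and Car1 through spleen alone. Counts of members and of list genes below leave out probe sets that passed in this way, except in the closing section on how the results depend on the processing. Where the call of such a probe set is given, its adjusted p in a fit with no filter stands beside it. The array medians ranged from 229.8 to 1661. Of the tissue markers, 6 of 7 in spleen and all in embryo, heart, kidney, lung and ovary were highest on the arrays so labelled, but 7 of 7 brain markers were highest on the arrays labelled liver and 7 of 7 liver markers on the arrays labelled brain. Those 4 arrays are therefore named by their labels only. In bulk RNA, fewer cells of a type and less RNA per cell cannot be told apart.

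**Figure D1:**
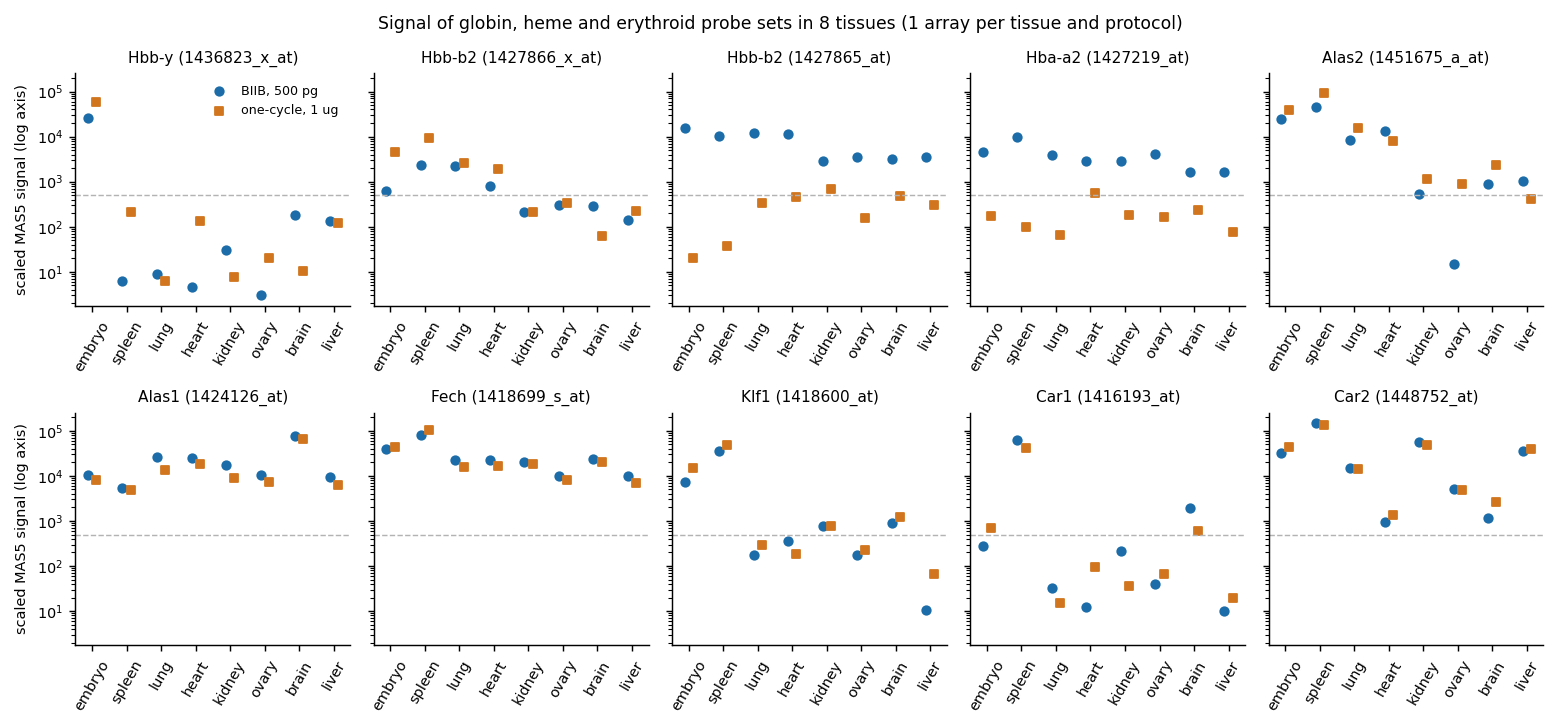
Scaled MAS5 signal (log axis) of 10 probe sets of the 9 genes in 8 tissues, named as labelled, with 1 BIIB array (circles) and 1 one-cycle array (squares) per tissue; the dashed line is the filter signal of 500.2. Hbb-y is high in embryo alone, Klf1, Alas2 and Fech are highest in spleen and next in embryo, and Hba-a2 1427219_at and Hbb-b2 1427865_at separate the protocols.

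In embryo, the embryonic beta-like globin Hbb-y stood far above all other tissues. Hbb-y 1436823_x_at read 25789 and 59759.7 in embryo (BIIB first and one-cycle second, here and below) and 3.00 to 215 on the other 14 arrays. Hbb-y 1436717_x_at read 20009.6 and 47652 in embryo and 3.00 to 113 elsewhere, and 1450621_a_at read 13956 and 25501 and 7.10 to 257 elsewhere. The embryo arrays overlapped no other array, and all signals outside embryo lay under the filter level. Against the mean of the other 7 tissues the log2 change was 7.81 ± 0.41 (SE; limma adjusted p = 1.95e-07), 7.67 ± 0.33 (8.16e-08) and 6.87 ± 0.34 (1.46e-07). Since these probe sets were tested through embryo alone, the fit with no filter is given too, where the adjusted p was 1.43e-07, 6.72e-08 and 1.16e-07. Hba-x, the embryonic alpha-like globin, was higher in embryo by 3.93 ± 0.51 and Hbb-bh1, another embryonic beta-like globin, by 3.64 ± 0.57. Both also passed through embryo alone, and with no filter their adjusted p was 0.000206 and 0.000872.

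Of the 11 member probe sets that passed the filter without their highest tissue, 4 were higher in embryo and 0 lower, where 16% of all 15180 tested probe sets were called, 10.3% higher and 5.71% lower. They were 1 each of Klf1, Alas2, Car2 and Fech. In spleen 7 of the 11 were higher and 2 lower, where 34.2% of all were called, 14.8% higher and 19.5% lower. The higher ones were Klf1, Alas2, Car2, 3 Fech probe sets and Hbb-b2 1427866_x_at, and the lower ones both Alas1 probe sets. Outside spleen and embryo the mean signal of Klf1 lay under the filter level, so Klf1 entered these counts through those tissues alone. The mean of the other 7 tissues includes embryo in the spleen comparison and spleen in the embryo comparison, so the tissue comparisons share arrays. Hbb-y lay under the filter level in all tissues but embryo, and no direction is given for it among them. On the arrays labelled brain 2 of the 11 were higher and 3 lower (34.7% of all called), and on those labelled liver 1 and 5 (34.7%). The counts were 0 and 2 in heart (22.6%), 1 and 2 in kidney (23%), 2 and 2 in lung (21.4%) and 0 and 5 in ovary (15.4%). Without the arrays labelled brain and liver 4 of the 11 were called in heart and 2 in lung, and with a 1% pseudocount 2 in lung. Without its own BIIB array the count was 1 in kidney and 1 in lung, and without its own one-cycle array it was 1 in lung. It was 3 on the arrays labelled brain without either of them.

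Klf1, the activator of adult beta globin, read 35527 and 47473 in spleen and 7138 and 14735 in embryo. The arrays labelled brain read 884 and 1224, those of kidney 784 and 788, and the other 4 tissues 10.7 to 354. Spleen stood above embryo, and embryo above all others, without overlap. The log2 change was 5.89 ± 0.28 in spleen (adjusted p = 2.46e-07) and 3.62 ± 0.28 in embryo (adjusted p = 3.36e-06). Compared directly, embryo was lower than spleen, with a log2 change of -1.99 ± 0.37 (adjusted p = 0.00175).

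Of 13 erythroid transcription factors, 9 passed the filter without their highest tissue, Klf1 among them, which did so through embryo alone. Of these 7 were higher in spleen and 0 lower, where 14.8% of all probe sets were higher and 19.5% lower. Their median log2 change there was 2.65 against -0.06 over all probe sets. In embryo 4 were higher and 0 lower, where 10.3% of all were higher and 5.71% lower, with a median of 1.08 against 0.04. The other 4, Gata1, Tal1, Nfe2 and Gfi1b, passed through spleen alone. Gata1, the GATA factor of erythroid cells, changed there by 3.90 ± 0.40 (adjusted p with no filter = 2.23e-05), its partner Tal1 by 4.20 ± 0.49 (5.45e-05), and Nfe2, a factor of erythroid and megakaryocyte genes, by 4.57 ± 0.33 (2.21e-06). In embryo Nfe2 was higher by 2.70 ± 0.33 (0.000179 with no filter), while Gata1 read 1.04 ± 0.40 and was not called (adjusted p = 0.0931).

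Alas2, the erythroid form of the first heme synthesis enzyme, read 45068.5 and 93003 in spleen and 24108 and 39303 in embryo. Lung read 8474 and 15672, heart 13148 and 8123, and the other 4 tissues 15.2 to 2316. Spleen, embryo, the pair of lung and heart, and the remaining tissues did not overlap. The log2 change was 4.50 ± 0.54 in spleen (adjusted p = 6.12e-05) and 3.28 ± 0.54 in embryo (adjusted p = 0.00118). The call in lung (1.67 ± 0.54, adjusted p = 0.0394) was lost under 11 of the 21 alternatives, among them leaving out the lung BIIB array (1.76, adjusted p = 0.208) or the lung one-cycle array (1.58, adjusted p = 0.222). Embryo minus spleen was -1.07 ± 0.71, with a 95% interval of -2.63 to 0.49 (adjusted p = 0.297), and was not called.

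Fech, which inserts iron into protoporphyrin, was highest in spleen on its 3 tested probe sets. Fech 1418699_s_at read 80659.5 and 102354 in spleen, 39478 and 44178 in embryo and 6815 to 23205 in the other tissues. Fech 1418698_a_at read 17119 and 23254, 6323 and 6478 and 1284 to 4275 in the same order. On these 2 probe sets spleen, embryo and the rest did not overlap, whereas on 1449181_at embryo (602 and 2259) lay among the other tissues and spleen (3591 and 10241) was highest within each protocol. In spleen the log2 changes were 2.38 ± 0.24, 2.74 ± 0.24 and 2.14 ± 0.31 (adjusted p = 1.80e-05, 6.75e-06 and 0.000226). In embryo 1418699_s_at was called at 1.10 ± 0.24 (adjusted p = 0.00741), a call lost without the embryo one-cycle array (0.89, adjusted p = 0.118) and, under 2-fold, without the arrays labelled brain and liver (0.89, adjusted p = 0.0385).

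Alas1, the form of the first enzyme used outside erythroid cells, had a different order. Alas1 1424126_at read 76100.4 and 65764 on the arrays labelled brain, which carry the liver markers, and 4788 to 25843 on the other 14. Spleen was lowest at 5490.3 and 4788. The log2 change was 2.70 ± 0.23 on the arrays labelled brain (adjusted p = 2.85e-06) and -1.59 ± 0.23 in spleen (adjusted p = 0.000245). Alas1 1455282_x_at changed by 1.64 ± 0.35 and -1.17 ± 0.35 in the same comparisons. Its first call was lost without the BIIB array labelled brain (1.11, adjusted p = 0.108), and its second without the spleen BIIB array (-1.25, adjusted p = 0.110) or the spleen one-cycle array (-1.09, adjusted p = 0.147).

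Of the 8 measured genes of heme synthesis, 7 passed the filter without their highest tissue. Of these 6 were higher in spleen and 1, Alas1, was lower, with a median of 2.19 against -0.06 over all probe sets. Besides Alas2 and Fech, the enzymes of steps in between rose: Alad by 1.98 ± 0.20, Uros by 2.49 ± 0.34, Urod by 2.15 ± 0.31 and Ppox by 2.19 ± 0.36. Cpox, which passed through spleen alone, changed by 1.24 ± 0.39 (adjusted p with no filter = 0.0335). The Cpox call was lost without the spleen BIIB array (1.47, adjusted p = 0.0868) and, under 2-fold, with a 20% pseudocount (0.78, adjusted p = 0.0290). In embryo 2 of the 7, Alas2 and Fech, were higher and 0 lower, where 10.3% of all probe sets were higher and 5.71% lower. Of 23 genes of the red cell membrane and of maturation, 19 passed without their highest tissue, of which 18 were higher in spleen and 12 in embryo, with 0 lower in either. In spleen 14.8% of all probe sets were higher and 19.5% lower. Slc4a1, the anion exchanger band 3, changed by 6.28 ± 0.35 in spleen and 3.74 ± 0.35 in embryo, and Slc25a37, the mitochondrial iron importer, by 4.30 ± 0.29 and 2.93 ± 0.29.

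Genes of iron handling and heme breakdown were mixed, with 7 of 14 higher in spleen and 3 lower. Of all probe sets 14.8% were higher there and 19.5% lower, so the lower count was near the share of all. The median of the list in spleen was 1.21 against -0.06 over all probe sets. Hmox1, which degrades heme, was higher there by 3.28 ± 0.29, Tfrc, the transferrin receptor, by 2.07 ± 0.27, and Slc40a1, the iron exporter ferroportin, by 2.29 ± 0.32. Hamp, which encodes the iron hormone hepcidin, was lower with a log2 change of -2.98 ± 0.50. In embryo 2 of the 14 were higher and 0 lower, where 10.3% of all probe sets were higher and 5.71% lower. The higher count was near the share of all, and the list median was -0.19 against 0.04. The heme carrier Hpx was among the higher ones at 3.16 ± 0.36.

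Car1, a carbonic anhydrase abundant in red cells, read 61737 and 40787 in spleen. The arrays labelled brain read 1899 and 606, embryo 277 and 699, and the other 5 tissues 10.3 to 212. The spleen arrays overlapped no other, and the log2 change was 7.54 ± 0.40 (adjusted p = 3.92e-07, and 3.64e-07 with no filter). Embryo was not called against the other tissues (0.17 ± 0.40, adjusted p = 0.812) and was lower than spleen (-6.45 ± 0.53, adjusted p = 5.23e-06, and 5.52e-06 with no filter).

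Car2, a carbonic anhydrase of many tissues, was spread more widely. It read 148228 and 132767 in spleen, 56376 and 47345 in kidney, 32537 and 43343 in embryo and 35266 and 38649 on the arrays labelled liver, which carry the brain markers. Lung read 14994.5 and 14581, ovary 5005 and 4934, the arrays labelled brain 1139 and 2613 and heart 937 and 1349. In this order embryo overlapped the arrays labelled liver, and the arrays labelled brain overlapped heart, while the other neighbours were apart. The log2 change was 3.76 ± 0.27 in spleen, 2.12 ± 0.27 in kidney, 1.59 ± 0.27 in embryo and 1.56 ± 0.27 on the arrays labelled liver. It was -4.02 ± 0.27 in heart, -3.37 ± 0.27 on the arrays labelled brain and -1.71 ± 0.27 in ovary, and these 7 calls were kept under the alternatives run for them.

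Compared directly, embryo was higher than spleen for 0 of the 11 member probe sets and lower for 5, where 26.6% of all probe sets were called, 16.2% higher and 10.4% lower. Hbb-y, tested through embryo alone, was higher by 7.02 to 7.58 on the log2 scale, with adjusted p = 1.75e-06, 4.60e-07 and 8.26e-07 with no filter. The lower ones of the 11 were Klf1, Car2 (-1.90 ± 0.36, adjusted p = 0.00195) and the 3 Fech probe sets (-1.12 ± 0.32, -1.62 ± 0.31 and -2.24 ± 0.41). The Fech 1418699_s_at call was lost without the embryo BIIB array (-0.91, adjusted p = 0.155) or the spleen one-cycle array (-0.81, adjusted p = 0.172). Lower in embryo than in spleen were also 5 of 7 heme synthesis genes, 4 of 9 erythroid transcription factors and 13 of 19 membrane and maturation genes, with 0 higher in each list. Of the other globins Hba-x (4.20 ± 0.67, adjusted p with no filter = 0.000727) and Hbb-bh1 (3.02 ± 0.75, 0.0128), tested through embryo alone, were higher in embryo, as was Mb, the muscle globin (4.26 ± 0.43). The Hbb-bh1 call was lost without the spleen BIIB array (2.36, adjusted p = 0.113) or with a 1% pseudocount (3.37, adjusted p = 0.0754).

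**Figure D2:**
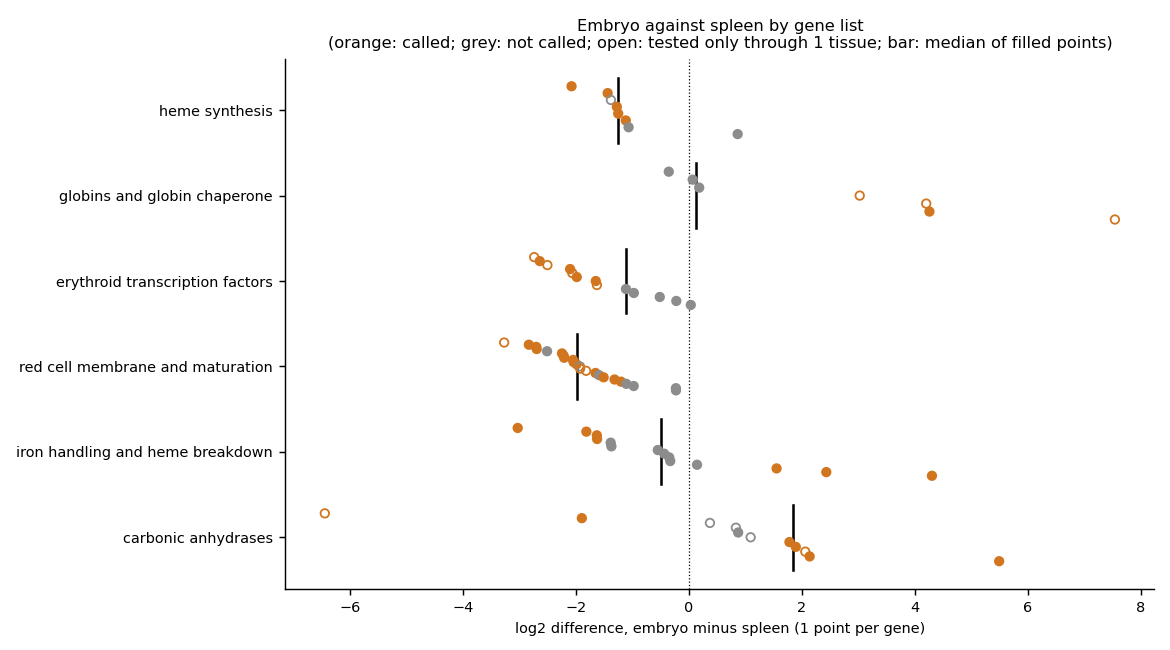
The log2 difference of embryo minus spleen for each measured gene of 6 lists, 1 point per gene, orange where called and open where the gene passed the filter through 1 tissue alone, with a bar at the median of the filled points. The medians of the heme synthesis, transcription factor and membrane lists are -1.25, -1.12 and -1.99, and the globins Hbb-y, Hba-x, Hbb-bh1 and Mb lie above 0.

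Markers of other blood cells were high in spleen too: 6 of 6 neutrophil, 5 of 5 platelet and megakaryocyte, 5 of 5 B cell, 4 of 5 T cell, 2 of 5 macrophage and 1 of 4 plasma cell markers were highest there. Summed neutrophil signal was 483163 and 627761 in spleen, 46290.5 and 69007.5 in embryo and 1599 to 92138 in the other tissues. Summed platelet signal was 50197 and 156761, 5502 and 20532 and 1110.3 to 7319.6 in the same order. The lymphocyte lists were lower in embryo than in spleen, with B cell sums of 64099 and 90870.4 in spleen, 2385 and 1506 in embryo and 422 to 7932 elsewhere, and T cell sums of 12428 and 22019.6, 3291 and 5062 and 653 to 53356. Macrophage sums were 231322 and 170924 in spleen, 264959 and 175231 in lung and 23903 and 37891 in embryo, and plasma cell sums 20659 and 95717 in spleen, 6114 and 25824 in embryo and 3422 to 50395.5 elsewhere. The part of these cells in the results for the erythroid genes was not tested.

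Adult globin signal depended on the probe set. Joint beta globin 1417184_s_at read 738511 and 249242 in spleen, 440035 and 269377 in embryo, 251675 and 243302 in heart, 288189 and 199175 in lung and 25383 to 91879.7 in the other 4 tissues. Joint alpha globin 1452757_s_at read 430014 and 263799 in spleen, 298934 and 291085 in embryo and 18560.1 to 211246 in the others. Spleen and embryo overlapped on both probe sets and stood above the other tissues on the alpha probe set. In spleen joint beta globin changed by 2.09 ± 0.52 and joint alpha globin by 2.90 ± 0.34 (1417714_x_at), 2.03 ± 0.51 (1452757_s_at) and 1.82 ± 0.60 (1428361_x_at). Without the spleen BIIB array joint beta globin changed by 1.02, adjusted p = 0.263, alpha 1452757_s_at by 1.04, adjusted p = 0.266 and alpha 1428361_x_at by 0.63, adjusted p = 0.581, so these 3 calls rested on that array, while that of 1417714_x_at was kept. The latter probe set had its largest change in lung, not in spleen: it changed there by 3.32 ± 0.34 (adjusted p = 3.87e-05), where it read 183504 and 255351 against 106877 and 261021 in spleen and 44753 and 148780.0 in embryo. Without the spleen one-cycle array the changes were 3.15 for joint beta globin and 3.00 for alpha 1428361_x_at. The call of alpha 1428361_x_at was also lost without the arrays labelled brain and liver (1.54, adjusted p = 0.0532). In embryo alpha 1417714_x_at changed by 1.72 ± 0.34 and 1452757_s_at by 1.81 ± 0.51. Both calls were lost without the embryo BIIB array (1.74, adjusted p = 0.0626 and 1.21, adjusted p = 0.423), without the embryo one-cycle array (1.69, adjusted p = 0.0502 and 2.42, adjusted p = 0.0503) and without the arrays labelled brain and liver (0.86, adjusted p = 0.0955 and 1.47, adjusted p = 0.0684), and 1428361_x_at was not called (1.70 ± 0.60, adjusted p = 0.0707). In embryo joint beta globin changed by 1.72 ± 0.52, a call lost under 9 of the 21 alternatives, among them leaving out the embryo BIIB array (1.15, adjusted p = 0.460) or one-cycle array (2.30, adjusted p = 0.0638).

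Hbb-b2 1427866_x_at read 2402 and 9335 in spleen, 2227 and 2585 in lung, 624 and 4571 in embryo, 808 and 1895 in heart and 62.3 to 337 in the other 4 tissues. It was higher in spleen by 2.81 ± 0.53 (adjusted p = 0.00139), a call lost without the spleen one-cycle array (2.10, adjusted p = 0.0556). In embryo it read 1.23 ± 0.53 and was not called (adjusted p = 0.132). Over the 16 tissue arrays, of which each protocol made 8, its log2 signal correlated with the 4 joint probe sets at r = 0.63 to 0.86, and that of Alas2 at r = 0.82 to 0.90.

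Hba-a2 1427219_at and Hbb-b2 1427865_at did not have that order. Hba-a2 1427219_at read 1632 to 9925 on the 8 BIIB arrays and 64.4 to 557 on the 8 one-cycle arrays. Hbb-b2 1427865_at read 2937 to 15139 with BIIB and 20.7 to 682 with one-cycle. The protocols did not overlap for either probe set. BIIB exceeded one-cycle by 3.57 ± 0.33 (adjusted p = 2.96e-06) and 4.12 ± 0.47 (adjusted p = 1.63e-05) on the log2 scale. Both passed the filter through the BIIB arrays alone, and with no filter the adjusted p was 2.85e-06 and 1.49e-05. These 2 probe sets correlated with the joint probe sets at r = -0.26 to 0.11 and with each other at r = 0.93 over the same arrays, and neither was called in any tissue. The r values pool both protocols, so they cannot tell whether the 2 probe sets followed adult globin across the tissues. Within BIIB, Hba-a2 1427219_at read 9925 in spleen, 4489 in embryo, 4109 in ovary, 3819 in lung, 2924 in heart and 1632 to 2867 in the rest. Joint alpha globin 1452757_s_at read 430014, 298934, 19952, 159820 and 129326 in the same order and 18560.1 to 26601 in the rest. Ovary thus stood above lung and heart for Hba-a2 1427219_at and far below them for the joint probe set.

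With BIIB, Hbb-b2 1427865_at read 15139 in embryo, 11838 in lung, 11467 in heart and 10485 in spleen, the tissues where joint beta globin was high, and 2937 to 3584 in the rest. With one-cycle it read 20.7 in embryo, 38.2 in spleen and 158 to 682 in the rest. The one-cycle signals lay under the filter level in all tissues but kidney, where they have little precision, so no fold between the protocols is given for single tissues.

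Between the protocols, 1 of the other 13 tested member probe sets was higher and 1 lower with BIIB, where 36.6% of all probe sets were called, 12.3% higher and 24.4% lower. Alas1 1455282_x_at was the higher one (1.55 ± 0.23, adjusted p = 0.000129) and Fech 1449181_at the lower one (-1.85 ± 0.20, adjusted p = 1.16e-05). The other 2 tested Fech probe sets read 0.20 ± 0.16 and -0.21 ± 0.16, so the probe sets of this gene disagreed. Klf1 read -0.31 ± 0.18, Car1 0.16 ± 0.27, Car2 -0.21 ± 0.18 and Hbb-y 1436823_x_at -0.28 ± 0.27, none of them called. Joint alpha globin 1417714_x_at was lower with BIIB (-1.68 ± 0.22, adjusted p = 4.81e-05). Alpha 1452757_s_at was called lower too (-1.02 ± 0.34, adjusted p = 0.0209), a call lost without the arrays labelled brain and liver (-0.67, adjusted p = 0.144). Alpha 1428361_x_at (-0.54 ± 0.40, adjusted p = 0.255) and joint beta globin (-0.30 ± 0.34, adjusted p = 0.474) were not called.

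**Figure D3:**
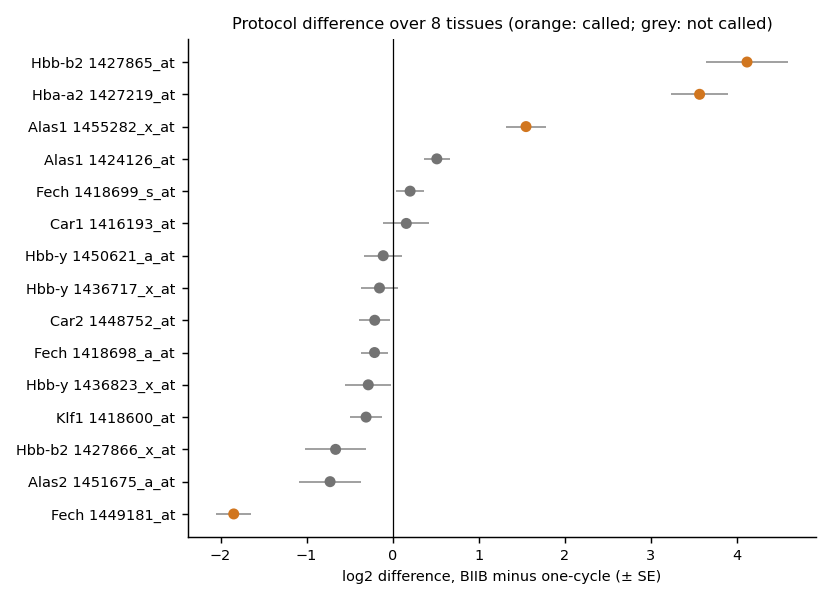
The log2 difference of BIIB minus one-cycle over the 8 tissues, with its SE, for the 15 tested member probe sets, orange where called. Hbb-b2 1427865_at and Hba-a2 1427219_at lie at 4.12 and 3.57, Alas1 1455282_x_at at 1.55 and Fech 1449181_at at -1.85.

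Universal RNA held little erythroid signal. With one-cycle from 1 ug, Hbb-y 1436823_x_at read 3.20 to 59.8 on the 4 arrays, Alas2 28.2 to 47.5, Klf1 114 to 382 and Car1 20.9 to 228. Fech 1418699_s_at read 5266 to 5852 and Alas1 1424126_at 2164 to 2781. The heme synthesis genes used in all tissues were thus well measured while the erythroid members lay under the filter level. Joint beta globin read 138 to 263, against at least 60076 on the one-cycle tissue arrays.

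Hba-a2 1427219_at again separated the protocols. It read 70.1 to 283 with one-cycle and 4656 to 6189.8 with BIIB at 5 ng, where joint beta globin read 11.6 to 284. The difference was 4.34 ± 0.20 (adjusted p = 3.76e-08), without overlap; the probe set was tested through BIIB alone, and with no filter the adjusted p was 9.16e-07. Fech 1449181_at was lower with BIIB here too, at 323 to 649.8 against 1627 to 2316 (-1.65 ± 0.19, adjusted p = 1.60e-05). The latter was 1 of 4 members that passed the filter without the higher group (0 higher and 1 lower), where 40.8% of all probe sets were called. Hbb-b2 1427865_at read 45.4 to 97.5 with BIIB and 25.6 to 138 with one-cycle, overlapping and under the filter level in both.

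At 500 ng, Ovation was called against one-cycle for 2 of 4 tested members, where 47.1% of all probe sets were called. Fech 1418698_a_at was higher (1.29 ± 0.12, adjusted p = 2.31e-05) and Fech 1449181_at lower (-1.50 ± 0.15, adjusted p = 3.96e-05). The call of Fech 1449181_at ended, under 2-fold, with quantile normalization (-0.95, adjusted p = 0.000859). Leaving out any 1 of the 4 one-cycle arrays gave 4 calls. By limma, two-cycle (11.6% of all probe sets) and RiboAmp HS (48%) had 0 of 4 members called, with 8061 and 10671 of all probe sets at an unadjusted p below 0.05. Alas1 1424126_at was close to the 2-fold threshold with RiboAmp HS (-0.97 ± 0.12, adjusted p = 0.000139), and 1 member was called without one-cycle replicate 1 or replicate 4.

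**Figure D4:**
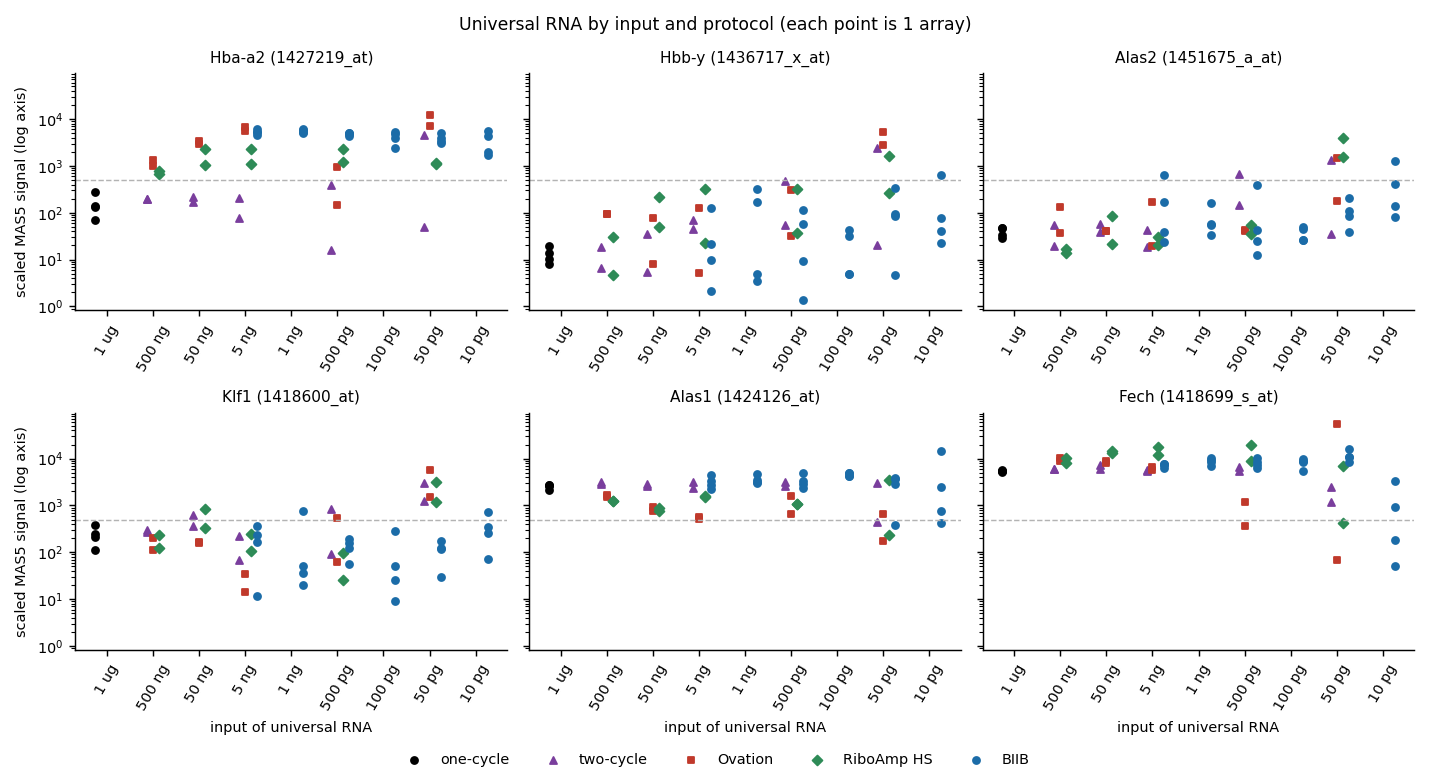
Scaled MAS5 signal (log axis) of 6 probe sets in universal RNA against input, 1 point per array, coloured by protocol; the dashed line is the filter signal of 500.2. Hba-a2 1427219_at separates BIIB from one-cycle, Klf1 passes the filter level on all 6 kit arrays at 50 pg, and Fech spreads widely at the lowest inputs.

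At 50 pg, members that lay under the filter level at 500 ng read higher on some kit arrays. Where Klf1, Alas2 and Hbb-y were called, they passed the filter through the 50 pg arrays alone, so these calls are not counted. Klf1 with Ovation read 197 and 112 at 500 ng and 5687 and 1482 at 50 pg, a change of 3.47 ± 0.79 (adjusted p = 0.0155, and 0.0153 with no filter). With RiboAmp HS it read 123 and 233 and 1214 and 3247, a change of 2.83 ± 0.67 (adjusted p = 0.0311, and 0.0321 with no filter). With two-cycle it read 305 and 275 and 1249.7 and 2973, and the change of 2.32 ± 0.77 was not called (adjusted p = 0.145). The inputs did not overlap in any kit, whereas the BIIB arrays read 11.4 to 371 at 5 ng and 29.1 to 171 at 50 pg.

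Alas2 with RiboAmp HS read 16.6 and 13.8 at 500 ng and 1535 and 3959.9 at 50 pg, a change of 4.21 ± 0.59 (adjusted p = 0.0212, and 0.0213 with no filter). With Ovation it read 36.8 and 129.7 and 1451 and 176, and with two-cycle 19.9 and 55.8 and 35.7 and 1345, so only 1 of the 2 arrays at 50 pg was high in each. Hbb-y 1436717_x_at with Ovation read 93.3 and 92.6 at 500 ng and 5277 and 2782 at 50 pg (4.18 ± 0.68, adjusted p = 0.00560, and 0.00562 with no filter). The other Hbb-y probe sets stayed low on those arrays, with 1436823_x_at at 352 and 129 and 1450621_a_at at 227 and 505. Hba-a2 1427219_at with Ovation read 1010.3 and 1310.1 at 500 ng, 6607 and 5581 at 5 ng, 145 and 934 at 500 pg and 11998 and 7215 at 50 pg, so its signal did not follow the input in 1 direction. From 500 ng to 50 pg it changed by 2.89 ± 0.70 (adjusted p = 0.0188).

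Of the members that passed the filter without their highest input, 1 of 5, Hba-a2, was called with Ovation (26.8% of all probe sets called) and, by limma, 0 of 5 with RiboAmp HS (14.2%, with 5322 probe sets at an unadjusted p below 0.05) and 0 of 4 with two-cycle (0.193%, with 3986). The calls of Klf1, Hbb-y and Hba-a2 with Ovation and of Klf1 and Alas2 with RiboAmp HS used the spread over the 10 arrays of a kit: fits of only the 2 groups gave 0 calls for Ovation and 0 for RiboAmp HS. Leaving out either array at 500 ng also gave 0 calls for both. Klf1 with RiboAmp HS lost its call with quantile normalization too (1.69, adjusted p = 0.0836). Over the members that passed without their highest input, the count was 2 and 3 without Ovation replicate 1 and 2 at 50 pg. Without replicate 1 and 2 at 50 pg it was 2 and 1 with RiboAmp HS, and 3 and 2 with two-cycle.

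Members that were well measured at higher inputs spread widely at 50 pg. Fech 1418699_s_at with Ovation read 10476 and 9052 at 500 ng and 55949 and 69.3 at 50 pg, and with RiboAmp HS 10333 and 8219.6 and 6856 and 423. Alas1 1424126_at with two-cycle read 2924 and 3198 at 500 ng and 3011 and 435 at 50 pg. No Fech or Alas1 probe set was called in the kits at 50 pg. With BIIB, Fech 1418699_s_at read 6316 to 7824 at 5 ng and 8395 to 16118 at 50 pg (0.63 ± 0.29, adjusted p = 0.360). By limma 0 of 5 tested members were called with BIIB at 50 pg, where 1.02% of all probe sets were called and 1734 had an unadjusted p below 0.05.

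Each kit was then set against BIIB for how much a signal changed between 5 ng and 50 pg. With Ovation it was larger by 4.70 ± 0.90 for Klf1 (adjusted p = 0.00730, and 0.00616 with no filter) and by 3.91 ± 0.84 for Hbb-y 1436717_x_at (adjusted p = 0.0115, and 0.00947 with no filter). Both were tested only through the Ovation arrays at 50 pg, and by limma 0 of the 5 members that passed without their highest group were called, where 13.6% of all probe sets were called and 3993 had an unadjusted p below 0.05. The Hbb-y call was lost with a 1% pseudocount (4.72, adjusted p = 0.0561) and without Ovation replicate 1 at 5 ng (3.43, adjusted p = 0.0785). Of the 5, 1 was called without Ovation replicate 1 at 50 pg and 2 without replicate 2. With RiboAmp HS the change was larger by 4.37 ± 0.97 for Alas2 (adjusted p = 0.0495, and 0.0397 with no filter). Alas2 was tested only through the RiboAmp HS arrays at 50 pg, and by limma 0 of the 6 members that passed without their highest group were called, where 1.2% of all probe sets were called and 2973 had an unadjusted p below 0.05. That call was lost under 13 of the 15 alternatives. Of the 6, 1 was called without RiboAmp HS replicate 1 at 50 pg. By limma two-cycle had 0 of 6 members called (0.0341% of all probe sets, 2504 at an unadjusted p below 0.05), and 3 without two-cycle replicate 1 at 50 pg.

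At 10 pg with BIIB, Fech was lower and 3 of the 4 joint globin probe sets were higher than at 5 ng. Fech 1418699_s_at read 6316 to 7824 at 5 ng and 51.2, 184, 931 and 3335 at 10 pg, and Fech 1418698_a_at 1214 to 2082 and 139, 139, 222 and 558. The inputs did not overlap for either. The changes were -3.47 ± 0.85 (adjusted p = 0.0302) and -2.24 ± 0.47 (adjusted p = 0.0163, and 0.0131 with no filter). Fech 1418698_a_at was tested through the 5 ng arrays alone, and of the 4 members that passed without the higher input 1, Fech 1418699_s_at, was called, where 12.1% of all probe sets were called and the median change of all was -0.78. By limma 0 of the 4 were called without any 1 of the 4 arrays at 5 ng, with quantile normalization, with a 1% pseudocount, with the replicate block or without replicate 3 at 10 pg, where Fech 1418699_s_at read -3.10, adjusted p = 0.0520. Alas1 1424126_at read 429.9, 759.7, 2431 and 14633 at 10 pg and was not called (-0.65 ± 0.93, adjusted p = 0.699).

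Joint beta globin read 11.6 to 284 at 5 ng and 1560.0, 2606, 2719 and 3382 at 10 pg, a change of 3.63 ± 0.49 (adjusted p = 0.00334). Joint alpha globin 1428361_x_at changed by 3.48 ± 0.60 (adjusted p = 0.00755) and 1452757_s_at by 3.48 ± 0.51 (adjusted p = 0.00408). These 3 probe sets were tested only through the 10 pg arrays, and with no filter their adjusted p was 0.00238, 0.00633 and 0.00304. The inputs overlapped for none of the 3, and their calls were kept under all alternatives run for them. All of these alternatives but the fit with no filter kept the filter, so they are no separate support. The fourth, alpha 1417714_x_at, read 13.4 to 56.0 at 5 ng and 22.4, 57.1, 141 and 376 at 10 pg and was not tested. At 50 pg joint beta globin read 10.8, 30.9, 935 and 1262, so 2 of the 4 arrays lay above the filter level. Other erythroid members did not separate the inputs: Alas2 read 23.2 to 644 at 5 ng and 82.4 to 1241 at 10 pg, and Klf1 11.4 to 371 and 70.7 to 723.

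The same 3 of the 4 joint probe sets were high at the smallest number of RAW267 cells. Joint beta globin read 3961 and 8062 on the 2 arrays of 50 cells and 74.9 to 2921 on the other 9. Joint alpha globin 1428361_x_at read 7377 and 4791 at 50 cells and 20.4 to 359 on the others, and 1452757_s_at 6522 and 2852 and 21.0 to 274. The arrays of 50 cells overlapped no other on these 3 probe sets, whereas alpha 1417714_x_at read 165 and 31.7 at 50 cells and 11.3 to 49.4 on the others, with overlap. No test was made. Fech 1418699_s_at (2921 to 15652.5) and Alas1 1424126_at (3098 to 9153) were above the filter level on all 11 arrays, while Alas2 reached at most 291 and Hbb-y 1436823_x_at at most 162. Hba-a2 1427219_at read 1532 to 3995 and was also above the filter level on all 11. Klf1 reached at most 1026 and Hbb-b2 1427865_at at most 1046.

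In the sorted lymphocytes, Car2 read 4672, 7247 and 28213 on the 3 arrays of B cells alone and 347, 739 and 1765 on the 3 arrays of T cells alone, without overlap. All cells came from a single mouse, and no test was made. Joint beta globin had a median of 2199.6 over the 18 lymphocyte arrays, against 738511 and 249242 in whole spleen. Joint alpha globin had medians of 113 (1417714_x_at), 171 (1428361_x_at) and 96.3 (1452757_s_at). These alpha probe sets reached the filter level on 0, 4 and 4 of the 18 arrays. Klf1 had a median of 144, Car1 of 463 and Alas2 of 623, all far below whole spleen. Hba-a2 1427219_at read 1561 to 7535 and was above the filter level on all 18.

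The genes whose signal was most like that of a member were found by Pearson r of log2 signal over the 16 tissue arrays of both protocols, among 14012 probe sets of other genes. Klf1 was most like Nfe2 (r = 0.961), Mpo (0.955), a granule enzyme of neutrophils, and Camp (0.935). Hbb-y was most like Krtdap (0.981), Tnni1 (0.974) and Col2a1 (0.969), the cartilage collagen. Alas2 was most like Arhgdib (0.898), and Fech most like Rsad2 (0.929), Fermt3 (0.917) and Epb42 (0.897), a red cell membrane protein. Alas1 was most like Tmem205 (0.904), Car1 most like Ranbp10 (0.938) and Car2 most like Pdk3 (0.910). Hba-a2 was most like Suz12 (0.979) and Hbb-b2 1427865_at most like Jmjd6 (0.948). Both of these members separated the protocols without overlap and were called in no tissue, so r over these arrays does not describe a tissue pattern for them. These correlations share arrays and protocols and are descriptions only.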

How the data were processed

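The 103 arrays hold 22690 probe sets, of which 64 controls were left out. Per the submitters' processing notes the deposited intensity values are MAS5 signals; the authors' MAS5 version and settings are not given in the sources used here. Signals were scaled to a common mean after trimming 2% at each end (2501; deposited arrays lay between 2500.23 and 2502.45). The array number limits the precision. Tests used limma 3.58.1 in R 4.3.3 on log2(signal + 125), a pseudocount of 5% of the trimmed mean, for probe sets with a mean signal of at least 20% of it; a fold change on this scale understates the change of low signals. The tissue fit used 16 arrays with the protocol as covariate, and kit fits used all arrays of a kit. P-values were adjusted over all probe sets of a fit. Genes with several probe sets are listed by probe set; in lists, the probe set with the highest mean signal over all arrays represents a gene. Named genes are the members and, by Pearson r of log2 signal over the tissue arrays, up to 3 other genes most like each; those named from the lists were chosen after their values were seen. The members and lists were chosen with earlier results of these data known. The fit was tested on simulated data. Alternatives were quantile normalization, pseudocounts of 1% and 20%, no filter, leaving out arrays, leaving out the arrays labelled brain and liver, a fit of the 2 groups only and a replicate block. Promoters came from the RefSeq table.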

Additional observations from a re-analysis of the deposited data

Results flagged for a closer look

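The signals of 1 probe set per member on 4 universal RNA arrays of 1 protocol and input were compared 63 times, and in 5 of these 1 array stood apart from the other 3; chance gives about 1 in 20. With BIIB, Hbb-y 1436823_x_at read 851 on replicate 2 at 10 pg and 16.7 to 30.9 on the others. Alas2 read 382 on replicate 1 at 500 pg and 12.3 to 41.8 on the others. Alas1 1424126_at read 390.5 on replicate 1 at 50 pg, against 2912 to 3866. Klf1 read 757 on replicate 4 at 1 ng, against 19.8 to 50.3. Car2 read 26.3 on replicate 4 at 100 pg, against 264 to 319.7.

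The change from 5 ng to 50 pg differed between a kit and BIIB, by a limma interaction term, for Klf1 (4.70 on the log2 scale) and Hbb-y 1436717_x_at (3.91) with Ovation and for Alas2 (4.37) with RiboAmp HS. All 3 were tested only through the kit arrays at 50 pg, where they were high; in fits with no filter their adjusted p was 0.00616, 0.00947 and 0.0397. The Alas2 call was lost under most of the alternatives run for it, and the Hbb-y call was lost with a 1% pseudocount. The other Hbb-y probe sets stayed low on the Ovation arrays at 50 pg.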

How the results depend on the processing

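Counts here are over all tested members, those that passed the filter through 1 group alone included. The latter were 4 of the 15 tested where 1 tissue was set against the others, and 6 of the 11 with RiboAmp HS at 50 pg. The share of all probe sets called under each setting is not given here. The counts thus describe how far the calls moved and are no result about the members. No call of a member reversed direction: over the alternatives, 1511 member calls were kept and 153 lost, and the count of called members moved by over 1.5 times in 66 alternatives and not in 297. With a 1% pseudocount the count of called members was 1 at BIIB 10 pg, 1 for Ovation against BIIB, 2 for RiboAmp HS at 500 ng, 0 for RiboAmp HS against BIIB, 2 in kidney and 4 in lung; with 20% it was 0 for RiboAmp HS against BIIB and 5 in lung. With quantile normalization it was 0 at BIIB 10 pg, 1 for Ovation at 500 ng, 1 for RiboAmp HS at each of 50 pg and 500 ng, 0 for RiboAmp HS against BIIB and 5 in heart. With no filter it was 5 for Ovation at 50 pg, 4 for Ovation and 1 for RiboAmp HS at the 500 ng input. Fits of the 2 groups only gave 0 in Ovation and 0 in RiboAmp HS at 50 pg. Without the arrays labelled brain and liver it was 8 in heart. Leaving out 1 array at a time gave 0 to 2 calls at BIIB 10 pg, 4 to 8 on the arrays labelled brain, 1 to 5 in kidney, 5 to 9 on the arrays labelled liver, 1 to 8 in lung, 4 to 9 in ovary, 0 to 5 in both Ovation and RiboAmp HS at 50 pg, 2 to 4 in Ovation and 0 to 1 in RiboAmp HS at 500 ng, 0 to 7 for two-cycle at 50 pg, and 1 to 4, 0 to 2 and 0 to 3 for Ovation, RiboAmp HS and two-cycle against BIIB. The replicate numbers were not taken to pair the arrays, since no kit had every correlation of same-numbered deviations over 0.1: 9 of 10 group pairs were over it with two-cycle (0.073 to 0.569), 2 with Ovation (-0.0175 to 0.133) and 3 with RiboAmp HS (-0.149 to 0.447). The limit of 0.1 was set here. With two-cycle the correlations were positive in all group pairs, so its same-numbered arrays may share a deviation that the main fit left in the spread. With the replicate block the count was 0 at BIIB 10 pg, 1 for RiboAmp HS at 500 ng and 0 for RiboAmp HS against BIIB, and within 1.5 times in the other fits that took a block. The cause of these shifts was not tested. Tissues had 1 array per protocol, and signals under the filter level have little precision.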

Other observations

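No tested carbonic anhydrase other than Car1 and Car2 was called higher in spleen. Car3, abundant in muscle and fat, was higher in embryo (3.09 ± 0.25) and lower in spleen (-3.19 ± 0.25), and Car13, which passed the filter through embryo alone, was higher there (2.30 ± 0.46; adjusted p with no filter = 0.00509) by limma. Car14 (-3.50 ± 0.38) and Car4 (-3.29 ± 0.29), which are membrane-bound, were lower in spleen. Of the 6 carbonic anhydrases that passed the filter without their highest tissue, 1, Car2, was higher in spleen and 5 were lower, with a median of -2.77 against -0.06 over all probe sets. In spleen 14.8% of all probe sets were higher and 19.5% lower. Epor, the erythropoietin receptor, passed the filter through spleen alone. It was higher in spleen (3.23 ± 0.60; adjusted p with no filter = 0.00148) and lower in embryo than in spleen (-3.27 ± 0.80; 0.0109), the latter call being lost without the embryo BIIB array (-2.28, adjusted p = 0.118) or the spleen BIIB array (-2.67, adjusted p = 0.0950).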
